A study of Mus musculus with 44 samples.

Results

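Gut endoderm of the mouse embryo forms from cells of separate origins, and the comparison described here asks for each gene whether the difference between these origins was smaller, equal or larger after the cells had come to share the gut tube. The members are 24 of 44 libraries, chosen by their titles, and all 16119 of 32287 genes listed above 1 TPM (transcripts of a gene relative to all transcripts of a library) in at least 4 of them. For each gene the E6.5 gap is the mean log2(TPM + 1) of exEndo 1 minus that of Epi, the E9.5 gap is exGut (exMidgut and exHindgut) minus emGut (emMidgut and emHindgut), and the change of the gap is the E9.5 gap minus the E6.5 gap. A positive gap means a higher level in cells of extraembryonic origin. Each of the 6 groups holds 4 libraries, so that each gut lineage has 8.

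The embryos were wild type and were made by aggregating mCherry+ morulae, from mCherry males and CD-1 females, with GFP+ G4 mESCs, so that the embryo proper descended from the ESCs and the extraembryonic endoderm from the morula. Epi is the epiblast and exEndo 1 is extraembryonic endoderm, both dissected by hand from single E6.5 embryos without sorting. The gut groups are EPCAM+ cells sorted from the midgut and the hindgut of E9.5 embryos, 4 embryos pooled in each replicate. The extraembryonic groups are mCherry+ cells, while the embryonic groups are dual-labelled cells, positive for GFP with a low mCherry signal, which the study regards as embryonic gut cells holding remnants of extraembryonic cells. It took these because EPCAM+ cells with GFP alone also include surface ectoderm and germ cells. Every E9.5 gap is therefore measured against dual-labelled cells, and RNA taken up with such remnants cannot be told apart from RNA of the embryonic cells. None of the 6 groups carried a deletion or a treatment, and development of the aggregated embryos lagged that of ordinary embryos by about a day. The study describes the ESCs as a male clone, while the morulae could be of either sex. Origin can therefore not be told apart from strain, from clone or, for sex-linked genes, from sex. The stage, the way of dissection and the sorting also changed together between E6.5 and E9.5, and their parts in a change on either side of a gap cannot be told apart.

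Visceral endoderm is the epithelium that surrounds the epiblast, takes up maternal nutrients by endocytosis, secretes serum proteins and lipoproteins, and patterns the epiblast through its anterior part. At gastrulation the definitive endoderm leaves the epiblast and enters this layer, and visceral endoderm cells over the embryo are carried into the gut tube together with it. The epiblast meanwhile leaves pluripotency, while extraembryonic lineages carry a DNA methylation landscape of their own, with several germline genes on the X chromosome that are active there and silent in the embryo.

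3 promoter windows are printed here because the genes behind them had different courses, described in turn further on: Cubn, a receptor of the endocytic visceral endoderm whose gap closed, Tex19.1, a germline gene whose gap was kept, and Slc25a31, a germline gene whose gap opened. Each holds 250 bases before and 50 after the start annotated by RefSeq in GRCm38.p6, on the strand of the gene from 5′ to 3′, with CpG dinucleotides in capitals. Cubn lies on the minus strand at chr2:13491827-13492126, and its window holds 5 CpG.
Cubn: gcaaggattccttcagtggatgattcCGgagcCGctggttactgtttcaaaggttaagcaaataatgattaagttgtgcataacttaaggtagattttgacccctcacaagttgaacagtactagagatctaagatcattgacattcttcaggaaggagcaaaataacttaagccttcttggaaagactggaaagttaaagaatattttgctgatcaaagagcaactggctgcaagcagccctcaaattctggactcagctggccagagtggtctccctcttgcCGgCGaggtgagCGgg
Tex19.1 lies on the plus strand at chr11:121145893-121146192, and its window holds 16 CpG.
Tex19.1: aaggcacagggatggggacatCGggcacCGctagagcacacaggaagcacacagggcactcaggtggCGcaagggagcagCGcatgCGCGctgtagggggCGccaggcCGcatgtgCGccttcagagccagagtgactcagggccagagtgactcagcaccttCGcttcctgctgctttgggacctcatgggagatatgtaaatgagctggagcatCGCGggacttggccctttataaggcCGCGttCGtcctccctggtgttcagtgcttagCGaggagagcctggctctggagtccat
Slc25a31 lies on the plus strand at chr3:40708621-40708920, and its window holds 22 CpG.
Slc25a31: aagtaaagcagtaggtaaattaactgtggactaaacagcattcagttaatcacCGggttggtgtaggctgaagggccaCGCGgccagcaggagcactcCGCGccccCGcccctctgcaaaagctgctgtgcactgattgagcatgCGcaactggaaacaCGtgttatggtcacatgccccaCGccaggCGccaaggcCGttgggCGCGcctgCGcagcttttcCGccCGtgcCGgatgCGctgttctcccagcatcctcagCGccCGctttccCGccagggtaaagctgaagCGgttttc
On either strand, the windows of Tex19.1 and Slc25a31 hold TCCCGC, an E2F-type sequence found in 19.97% of the 32817 promoters of the same length in the table. The window of Slc25a31 also holds the E-box CACGTG, which 7.15% of these promoters hold. The Cubn window holds neither the GATA-type sequence AGATAA nor the forkhead-type sequence TGTTTAC, which 11.2% and 3.65% of the promoters hold. Among the tested genes with a promoter in the table, the shares were 35.0% for TCCCGC, 10.1% for CACGTG, 6.6% for AGATAA and 2.55% for TGTTTAC. The classes were not compared by promoter content, because only 73.6% of the tested genes had a promoter in the table.

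The libraries held between 12540 and 13596 genes above 1 TPM, and the deepest had 3.41 times the aligned bases of the shallowest as recovered from the deposited coverage. mCherry was listed at 1764 to 5231 TPM in exEndo 1, at 5868 to 8273 TPM in exGut and at no more than 6.61 TPM in Epi and emGut, and EGFP was at 180 to 532 TPM in Epi, 548 to 880 TPM in emGut and at most 2.38 TPM in exGut. EGFP reached 13.7 and 15.9 TPM in exEndo 1 replicates 2 and 4. Epi replicate 1 had 212 genes lying more than 1 log2 unit outside the range of the other Epi libraries, among them Foxa2 at 0.121 TPM against 18.7 to 25.1. By the same measure exEndo 1 replicate 1 had 326 genes, the other libraries of E6.5 had 4 to 151, and each gut library had 404 to 843. The libraries emMidgut 1 and 3 had high levels of germ cell genes, with Dppa3, a primordial germ cell gene, at 224 and 183 TPM against 0 in the other 6 emGut libraries. Summed markers of mesenchyme, 12 genes, were at 44.4 to 105 TPM in emGut and 22.7 to 39.7 TPM in exGut, without overlap and with Lum at 0 in all 16 libraries, and Epi and exEndo 1 lay at 2.62 to 10.4 and 9.37 to 16.0 TPM. The 12 neural markers summed to 9.44 to 27.3 TPM in emGut and 4.97 to 11.4 TPM in exGut, with Neurog1 and Neurog2 at 0 in every gut library. The 11 blood markers summed to 0.165 to 7.44 TPM in emGut and 0.285 to 9.995 TPM in exGut, with Alas2 the highest on average in both. Of the embryonic globins, Hbb-y and Hbb-bh1 were at 0 in all gut libraries, and Hba-x was at 2.22 TPM in emHindgut replicate 2. In bulk libraries of this kind, fewer cells of a type cannot be told apart from less RNA per cell.

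Fewer genes differed between the lineages at E9.5 than at E6.5, and gaps were smaller. At E6.5, 4457 of the 16119 genes (27.7%) differed between exEndo 1 and Epi, 2710 of them higher in exEndo 1 and 1747 lower, where a call needed an adjusted p under 0.05 (limma, Benjamini-Hochberg, two-sided) and a difference above 1 on the log2(TPM + 1) scale. At E9.5, 823 genes (5.11%) differed between exGut and emGut, 381 higher in exGut and 442 lower, with 8 libraries in each of these groups. By the study's methods, the gut libraries were made from small numbers of sorted cells, and those of E6.5 from whole dissected tissues. Libraries also correlated less within the gut groups than within those of E6.5, as given further on. The part of this noise in the lower counts at E9.5 was not tested. With 4 libraries a side, the lineages did not overlap for 8341 genes (51.7%) at E6.5, for 1481 (9.19%) in the midgut and for 1707 (10.6%) in the hindgut. Over the 8 libraries a side of both regions together, a stricter demand, 223 genes (1.38%) did not overlap at E9.5. The median absolute gap over all genes fell from 0.563 to 0.236, and the share of genes with a gap above 1 fell from 28.9% to 5.65%. Over genes, which are not independent replicates, the slope of the E9.5 gap on the E6.5 gap was 0.169, with 0.190 for the midgut and 0.149 for the hindgut. Taken 1 exGut library at a time, this slope lay between 0.124 and 0.222. Against the emGut mean of their region, single exGut libraries had a gap above 1 for 14.2 to 18.6% of genes, and against the Epi mean single exEndo 1 libraries had one for 29.2 to 31.9%.

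**Figure D1:**
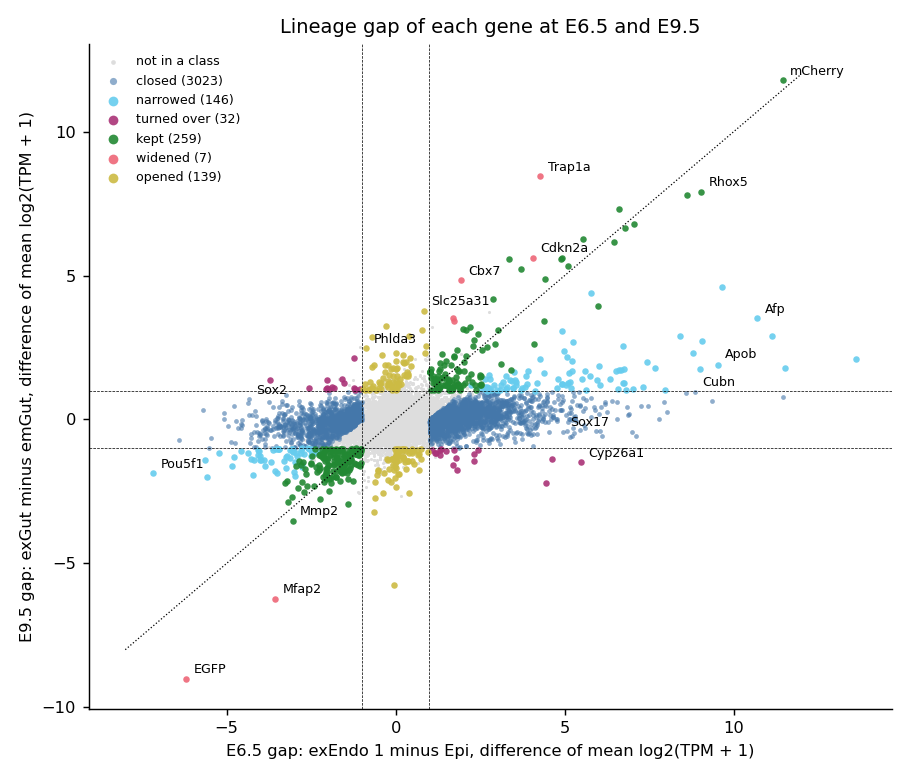
Each point is a gene, with its E6.5 gap (exEndo 1 minus Epi) on the horizontal axis and its E9.5 gap (exGut minus emGut) on the vertical axis, both as differences of mean log2(TPM + 1), and colours mark the classes of the gap. Most of the 3023 closed genes form a flat band around an E9.5 gap of 0, while kept and widened genes such as Rhox5, Trap1a and Mfap2 lie away from it.

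The change of the gap itself was called for 3761 genes (23.3%), of which 1372 rose (8.51%) and 2389 fell (14.8%). This split depended on the scaling, since 1947 rose and 1925 fell after quantile normalization, and at E6.5 the 2710 of 4457 called genes that were higher in exEndo 1 became 2255 of 4558. The median change over all genes was −0.138 with TPM as deposited and −0.00600 after median-ratio rescaling, and it turned to 0.0545 after quantile normalization. Changes below are on the TPM scale as deposited and are to be read against this shift. The within-group correlation of libraries was 0.972 to 0.996 at E6.5 and 0.929 to 0.963 in the gut groups, so that single gut libraries carried more noise than those of E6.5.

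Genes were sorted by the course of the gap. A gap that was called at E6.5 was closed where the change was called toward 0 and the E9.5 gap lay under 1, narrowed where it shrank but stayed at or above 1, turned over where it came to lie beyond 1 on the other side, kept where the E9.5 gap was called on the same side with no change called, and widened where the called change enlarged it. Of the 4457 genes, 3023 closed (67.8%), 146 narrowed, 32 turned over, 259 were kept (5.81%), 7 widened and 990 (22.2%) could not be placed, because neither the change nor the E9.5 gap was called. A further 139 genes opened, with a gap under 1 at E6.5 and a called gap and change at E9.5. The classes are built from the same differences, so their counts and median gaps are descriptions. As the background for the lists that follow, 18.8% of all genes tested closed. At E6.5 16.8% were higher and 10.8% lower, at E9.5 2.36% were higher and 2.74% lower, 17.9% rose and 12.9% fell in the extraembryonic lineage, and 21% rose and 7.84% fell in the embryonic. Just inside the limit, Cyp2b23 closed from 2.83 to 0.9999 and Fuom from −3.10 to −0.997, and just outside it Fabp2 narrowed from 4.12 to 1.001 and Gabra3 from −2.76 to −1.001.

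The median gap of the 1947 closed genes that had been higher in exEndo 1 went from 1.83 to 0.06, and that of the 1076 closed genes that had been lower went from −1.83 to −0.07. Most closed genes were expressed in both gut lineages, since 1617 (83.1%) and 808 (75.1%) of them had means above 1 TPM in both gut lineages at E9.5, and 59 and 83 were under 1 TPM in all 16 gut libraries. Closing came from either side. Of the 1947 genes, 758 (38.9%) fell in the extraembryonic lineage with no call in the embryonic lineage, 613 (31.5%) rose in the embryonic lineage alone, 145 did both, and 123 rose in both lineages but further in the embryonic. A further 277 (14.2%) had no call in either lineage, and alone means here that the other lineage had no call. Of the 1076 genes, 389 (36.2%) rose in the extraembryonic lineage alone, 367 (34.1%) fell in the embryonic lineage alone, 47 did both, and 133 (12.4%) rose in both but further in the extraembryonic. Over all genes, 2888 rose and 2087 fell in the extraembryonic lineage (30.9% in all), and 3377 rose and 1263 (7.84%) fell in the embryonic lineage (28.8%). The extraembryonic lineage made the larger part of the closing for 1013 (52.0%) of the former and 603 (56.0%) of the latter genes.

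**Figure D2:**
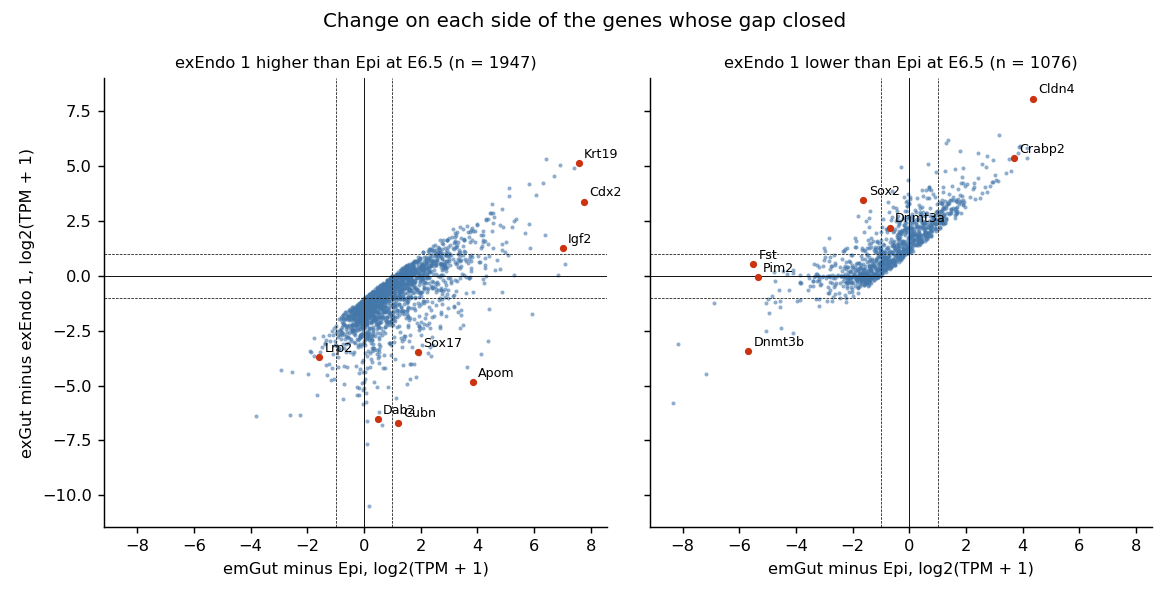
Each point is a gene whose gap closed, placed by its change in the embryonic lineage (emGut minus Epi, horizontal) and in the extraembryonic lineage (exGut minus exEndo 1, vertical), both as differences of mean log2(TPM + 1). The left panel holds the 1947 genes higher in exEndo 1 at E6.5, where Cubn and Dab2 fell along the vertical axis while Cdx2, Igf2 and Krt19 rose on both axes, and the right panel the 1076 lower genes, where Pim2 fell in the embryonic lineage and Cldn4 rose in both.

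The endocytic and lysosomal machinery of the visceral endoderm closed from both sides, the larger part being a fall in the extraembryonic lineage. Of its 17 genes tested, 16 were higher in exEndo 1 at E6.5, against 16.8% of all genes, and 13 of these closed and 3 narrowed. The median gap of the list fell from 3.72 to 0.43, beside 0.08 and −0.03 for all genes, and 12 of the 17 fell in the extraembryonic lineage while 12 rose in the embryonic lineage, with median changes of −2.82 and 1.35. Cubn, which encodes the endocytic receptor cubilin (chr2:13276338-13491813, minus strand), was at 299, 463, 739 and 573 TPM in exEndo 1 and at 0.0772, 0.0901, 0.0460 and 0.0585 TPM in Epi. At E9.5 it was at 0 to 39.6 TPM in exGut (median 4.29) and 0 to 8.18 TPM in emGut (median 1.74). The lineages were fully apart at E6.5. At E9.5 they were apart in the midgut, with 8.58 to 39.6 TPM in exMidgut and 3.48 to 8.18 TPM in emMidgut, and near 0 on both sides in the hindgut, and even the highest exGut library was far below exEndo 1. The gap of Cubn went from 8.85 to 0.97, a change of −7.88 (SE 0.42, adjusted p = 2.29e-13 by limma), of which −6.69 was on the extraembryonic and 1.20 on the embryonic side. What was left lay in the midgut, where the gap was 1.94 (SE 0.35, adjusted p = 6.62e-04), while it was 0.00 in the hindgut (SE 0.35), and the difference between the regions missed the threshold (adjusted p = 0.0772).

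Dab2, an adaptor of this endocytic pathway, was at 1776, 1955, 2641 and 2143 TPM in exEndo 1 against 9.28 to 12 TPM in Epi. In the gut it was at 2.65 to 82.8 TPM in exGut (median 22.8) and 5.47 to 46.8 TPM in emGut (median 13.4), the ranges overlapping. Its change was −7.02 (SE 0.46, adjusted p = 1.10e-11, limma), with a fall of the extraembryonic side by 6.53 and no call on the embryonic side (0.49). The lysosomal cathepsins Ctsl, Ctsb, Ctsc and Ctsz closed from gaps of 4.56, 4.21, 5.16 and 3.16 to 0.43, 0.43, 0.43 and 0.12. Amn, the membrane partner of cubilin, narrowed from 9.07 to 2.73, and here the regions differed, with a gap of 4.62 in the midgut and 0.83 in the hindgut (adjusted p of the difference 0.00831, limma). Such a difference between regions was called for 0.478% of all genes. For Amn both lineages were low in the hindgut, at 0.167 to 4.43 TPM in exHindgut and 0 to 1.67 TPM in emHindgut.

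Serum proteins and lipoproteins, the secreted products of the visceral endoderm, narrowed more often than they closed. Of 17 serum and transport proteins, 13 were higher in exEndo 1, and 5 closed, 7 narrowed and Fabp1 turned over, from 4.44 to −2.22. Of 12 lipoprotein genes, 11 were higher, and 4 closed, 6 narrowed and Apoa2 was kept. In these lists 8 and 7 genes were called higher in exGut at E9.5, against 2.36% of all genes, not all of them with a gap called at E6.5. In the yolk sac endoderm of the same stage (YsEndo, 4 libraries) these genes were high, and 66 of the 87 narrowed genes that had been higher in exEndo 1 (75.9%, against 8.59% of all genes) had a mean there over 1 log2 unit above exGut. The class was set by the same exGut values, so this share is a description and that of all genes is no fair reference. Yolk sac endoderm markers, 9 genes, summed to 114 to 13440 TPM in exGut, 29.9 to 2662 TPM in emGut and 37930 to 42790 TPM in YsEndo. Their part in these results was not tested.

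Apob, the scaffold protein of lipoproteins, was at 607, 992, 892 and 715 TPM in exEndo 1 and at no more than 0.110 TPM in Epi. At E9.5 it was at 3.05 to 181 TPM in exGut (median 37.1) and 0 to 44.6 TPM in emGut (median 15.4). These ranges overlapped over both regions together but not within either, with 68.3 to 181 against 29.7 to 44.6 TPM in the midgut and 3.05 to 6.04 against 0 to 1.09 TPM in the hindgut. The gap narrowed from 9.54 to 1.89, a change of −7.64 (SE 0.33, adjusted p = 5.99e-15, limma), and it remained in both regions, with 1.83 in the midgut and 1.96 in the hindgut. Afp, alpha-fetoprotein, was at 1397 to 2569 TPM in exEndo 1 and at most 0.325 TPM in Epi, and in the gut at 22.1 to 8162 TPM in exGut (median 2539) and 2.13 to 978 TPM in emGut (median 340). Its gap narrowed from 10.70 to 3.52 (adjusted p of the change 4.09e-09, limma) mostly through a rise of the embryonic lineage by 6.02. Apom, a carrier of lipids in plasma, closed from 9.35 to 0.65 where the extraembryonic lineage fell by 4.86 and the embryonic rose by 3.85, both called. Apoc2, listed at 0 in all Epi libraries, was at 1531 to 3979 TPM in exEndo 1 and then at most 8.33 TPM in exGut and 1.69 TPM in emGut, so that both gut lineages were near 0 while YsEndo was at 5390 to 7266 TPM. Trf, transferrin, closed over both regions (6.19 to 0.55), but the gap was 1.65 in the midgut and −0.54 in the hindgut (adjusted p of the difference 0.00701, limma).

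Transcription factors of endoderm closed as a group, through rises in the embryonic lineage and falls in the extraembryonic. Of 15 tested, 13 were higher in exEndo 1 and all 13 closed, while Eomes and Ovol2 had no gap called at either stage. None of the 15 had a gap called at E9.5, a count near the 5.11% of all genes, and the median gap of the list fell from 2.91 to 0.16. In the embryonic lineage 11 rose and 2 fell, beside 21% and 7.84% of all genes, and in the extraembryonic lineage 1 rose and 8 fell, beside 17.9% and 12.9%. Sox17, an HMG box factor needed for definitive endoderm, was at 36.0, 90.6, 80.0 and 101 TPM in exEndo 1 and at 0.230, 3.11, 2.39 and 0.809 TPM in Epi, and in the gut at 0 to 39.7 TPM in exGut (median 8.49) and 0 to 26.5 TPM in emGut (median 10.0). The gut lineages covered the same range, with the 4 hindgut libraries of each above its 4 midgut libraries. Its change was −5.38 (SE 0.71, adjusted p = 1.29e-06, limma), made of a fall by 3.48 in the extraembryonic lineage and a rise by 1.90 in the embryonic. For Gata4 and Hnf4a, which are also endoderm factors, the larger part likewise lay on the extraembryonic side, with falls by 4.21 and 4.02 and changes of −4.86 and −5.69. Foxa2 is counted among the 13, but its change of −1.80 (adjusted p = 0.0479, limma) was not called under 27 of 40 alternatives, and it was −0.72 without Epi replicate 1.

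Anterior visceral endoderm genes, which encode inhibitors of Nodal and Wnt and their regulators, mostly closed with the extraembryonic level lost. Of 10, 7 were higher in exEndo 1 and 1 (Otx2) was lower, and 7 closed, among them Cer1, Dkk1, Hhex and Lhx1, while Fzd5 could not be placed and Lefty1 and Gsc had no gap called. In the extraembryonic lineage 8 of the 10 fell and none rose. Cer1, a secreted antagonist of Nodal, was at 283, 89.8, 11 and 210 TPM in exEndo 1 and 0.153, 10.9, 7.31 and 3.56 TPM in Epi, and in the gut it was listed at 0 in all emGut and 7 of 8 exGut libraries. Hhex, a factor of anterior endoderm, stayed expressed instead, at 4.52 to 22.7 TPM in exGut and 10.9 to 34.7 TPM in emGut, and closed from 2.78 to −0.68 (change −3.47).

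Genes of gut identity rose in both lineages, and where a gap was called at E9.5 exGut was mostly the lower side. Of 34 gut and posterior patterning factors tested, 30 rose in the extraembryonic lineage and 30 in the embryonic, against 17.9% and 21% of all genes, and none fell in either. Cdx2, the master factor of intestinal identity, was at 8.22, 21.0, 28.4 and 18.9 TPM in exEndo 1 and at 0.196 to 0.548 TPM in Epi, and it reached 128 to 334 TPM in exGut (median 192) and 242 to 401 TPM in emGut (median 300). Its gap of 3.73 closed to −0.67, a change of −4.41 (SE 0.29, adjusted p = 7.94e-12, limma), with rises by 3.36 and 7.77. The closed gap did not vanish, since the E9.5 difference of −0.67 had an adjusted p of 0.00724 (limma), and in the midgut it was −1.19. Hoxb6, listed at 0 in all libraries of E6.5, was at 2.56 to 42.9 TPM in exGut and 9.51 to 44.8 TPM in emGut. At E9.5, 7 of the 34 were lower in exGut and 1 was higher, against 2.74% and 2.36% of all genes, and the median gap of the list went from 0.11 to −0.41 and its median absolute gap from 0.175 to 0.527. Cdx4 (−0.04 to −5.74), Hoxb1 (−0.38 to −2.56), Hoxb5 (0.00 to −1.22) and Hoxb9 (0.04 to −1.01) opened.

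Of 24 epithelial adhesion and keratin genes, 9 were higher and 5 lower in exEndo 1, against 16.8% and 10.8% of all genes, and 12 closed, against 18.8%. In the extraembryonic lineage 9 rose and in the embryonic 17, and none fell in either. At E9.5 none of the 24 was higher in exGut and Vim, an intermediate filament of mesenchyme, was lower (kept, −1.27 to −2.14), counts near the 2.36% and 2.74% of all genes. Krt19, a keratin of simple epithelia, was at 4.70 to 20.3 TPM in exEndo 1 and 0.600 to 1.10 TPM in Epi, and at 229 to 711 TPM in exGut and 159 to 660 TPM in emGut. Its rises of 5.11 and 7.58 took the gap from 2.77 to 0.31. Cldn4, a tight junction protein, was the mirror case, at 5.62 to 34.1 TPM in Epi and at most 0.953 TPM in exEndo 1, and then at 219 to 598 TPM in exGut and 172 to 512 TPM in emGut, with rises of 8.05 in the extraembryonic and 4.35 in the embryonic lineage. Of 18 basement membrane genes, 12 were higher in exEndo 1, against 16.8% of all genes, and 11 closed, against 18.8%, among them Col4a1 (3.95 to −0.48), Lama1 (2.75 to −0.70) and Nid1 (3.56 to 0.56). In the embryonic lineage 16 of the 18 rose, against 21%. None had a gap called at E9.5, a count near the 5.11% of all genes.

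Pluripotency and epiblast genes closed through larger falls in the embryonic lineage, where Epi had been the higher side. Of 23 tested, 15 were lower in exEndo 1 at E6.5, against 10.8% of all genes, and 12 of these closed and Pou5f1 narrowed. In the embryonic lineage 20 of the 23 fell and none rose, and 15 fell in the extraembryonic lineage too. Pou5f1, which encodes OCT4, was at 1694, 1824, 1852 and 1067 TPM in Epi and 9.29, 21.7, 2.29 and 17.4 TPM in exEndo 1. In the gut it was at 0 to 131 TPM in emGut (median 1.29) and 0 to 1.66 TPM in exGut (median 0). Its E9.5 gap of −1.875 was not called (adjusted p = 0.106, limma). The high emGut libraries were emMidgut 1 and 3 with 93.6 and 131 TPM, the libraries with germ cell genes, and without them the change of 5.30 (SE 1.31, adjusted p = 0.00252, limma) was 7.0 (adjusted p = 1.03e-08). Nanog, another pluripotency factor, closed from −4.20 to −0.97 with these libraries, and its change of 3.23 was 4.17 without them.

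Not all of these genes went down to a floor. Sox2, which marks epiblast and later foregut and neural cells, was at 25.3 to 32.4 TPM in Epi and 0.0280 to 0.874 TPM in exEndo 1, and at 1.25 to 24.5 TPM in emGut (median 11.6) and 6.88 to 26.7 TPM in exGut (median 13.6). The extraembryonic lineage rose by 3.42 and the embryonic fell by 1.62, a change of 5.05 (SE 0.50, adjusted p = 1.39e-08, limma). Tdgf1, a co-receptor of Nodal, was at 212 to 480 TPM in Epi and was listed at 0 in all 16 gut libraries. Pim2, a kinase gene on the X chromosome, was at 329 to 660 TPM in Epi and 12.5 to 17.6 TPM in exEndo 1, and at 4.07 to 21.3 TPM in emGut and 5.61 to 26.2 TPM in exGut, so that the embryonic lineage alone moved (−5.36 against −0.07). The Epi range of Fst, an inhibitor of activins, was 30.4 to 156 TPM with replicate 1 the lowest, and both gut lineages lay under 10 TPM, at most 9.15 in emGut and 7.65 in exGut.

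Of 16 enzymes that write, keep or erase DNA methylation and factors that work with them, 5 were higher and 6 lower in exEndo 1 at E6.5, against 16.8% and 10.8% of all genes, and 8 closed, against 18.8%. None had a gap called at E9.5, a count near the 5.11% of all genes. Dnmt3b, a de novo methyltransferase, was at 1167 to 1723 TPM in Epi and 220 to 355 TPM in exEndo 1, and at 11.5 to 42.2 TPM in emGut (median 31.0) and 13.51 to 51.8 TPM in exGut (median 27.1). The embryonic lineage fell by 5.69, the extraembryonic lineage fell by 3.45, and the gap of −2.26 closed to −0.01 (SE 0.19). Dnmt3a, the other de novo enzyme, was at 107 to 307 TPM in Epi and 19.8 to 41.9 TPM in exEndo 1, and at 88.5 to 167 TPM in emGut and 102 to 154 TPM in exGut. Its gap of −2.92 closed to −0.04 (SE 0.18), mainly through a rise by 2.19 in the extraembryonic lineage, so that the 2 enzymes reached a common level along different paths.

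**Figure D3:**
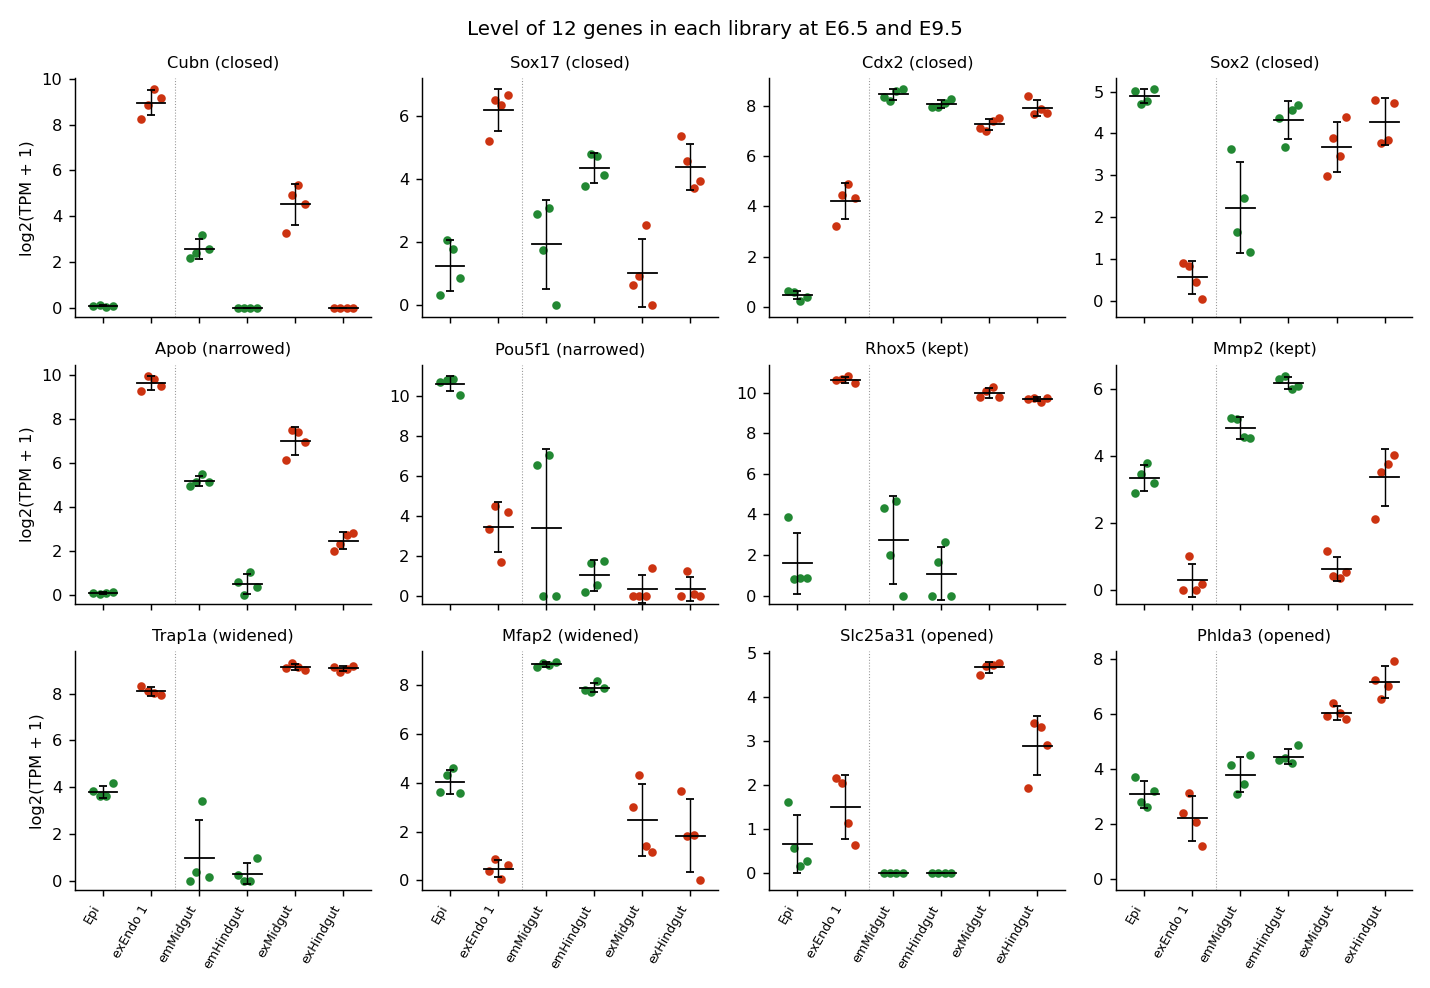
Level of 12 genes as log2(TPM + 1) in each library of the 6 groups, with points for libraries, lines for group means and bars for the SD of 4 libraries, embryonic groups in green and extraembryonic groups in red, and E6.5 to the left of the dotted line. Sox17 and Sox2 overlap in both gut regions, Cubn and Cdx2 overlap in the hindgut and lie apart in the midgut, Rhox5, Mmp2, Trap1a, Mfap2 and Slc25a31 end fully apart, and Pou5f1 is high in 2 emMidgut libraries.

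Narrowed genes were few but had begun with wide gaps, with a median of 4.93 to 1.35 for the 87 that had been higher and −3.25 to −1.22 for the 59 that had been lower. Some narrowed although both gut lineages were high. Commd3, whose product takes part in endosomal sorting, was at 255 to 366 TPM in exEndo 1 and 26.4 to 48.3 TPM in Epi, and at 491 to 608 TPM in exGut and 169 to 269 TPM in emGut. The lineages did not overlap at either stage, and the gap went from 3.17 to 1.30 (change −1.88, SE 0.17, adjusted p = 4.43e-09, limma). Ifitm2, an interferon-induced membrane protein, was at 371 to 500 TPM in Epi and 2.01 to 20.1 TPM in exEndo 1, and the extraembryonic lineage rose by 5.78 to 214 to 874 TPM against 877 to 1747 TPM in emGut. Wfdc2, an epithelial secreted protein, went from −5.59 to −2.01 in the same manner, with 15.2 to 60.7 TPM in exGut and 104 to 238 TPM in emGut. In cholesterol synthesis and uptake, 9 of 20 genes were lower in exEndo 1 and 7 were lower in exGut (against 2.74% of all genes), the median gap being −0.91 and then −0.87. Here Sqle and Idi1 narrowed, to −1.20 and −1.28, and Hmgcs1 was kept, at −1.04 and −1.02.

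The imprinted genes, which are expressed from the allele of a single parent, were tested as 28 genes, of which 14 were higher and 5 lower in exEndo 1. 14 closed, among them Igf2, the fetal growth factor, which was at 27.6 to 71.1 TPM in exEndo 1, at most 0.454 TPM in Epi, and at 74.6 to 182 TPM in exGut and 109 to 204 TPM in emGut. Its change was −5.75 (SE 0.27, adjusted p = 1.22e-14, limma), through a rise by 7.0 in the embryonic lineage and 1.25 in the extraembryonic. H19, the noncoding neighbour of Igf2, did not follow it. It was at 736, 1316, 2150 and 1721 TPM in exEndo 1 and 0.491 to 1.26 TPM in Epi, and at 456 to 1181 TPM in exGut (median 696) and 3.05 to 138 TPM in emGut (median 56.8), ranges that did not overlap. The gap of H19 narrowed from 9.65 to 4.61 (change −5.04, SE 1.07, adjusted p = 5.98e-04, limma), while that of Igf2 was −0.59 at E9.5. Slc38a4, an amino acid transporter, was kept with 82.7 to 123 TPM in emGut and 0 to 32.6 TPM in exGut, and Nnat opened.

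Genes that turned over were 32 in number. Cyp26a1, the enzyme that degrades retinoic acid, was at 1384, 1080, 456 and 809 TPM in exEndo 1 and 0.108, 34.0, 53.4 and 65.6 TPM in Epi, and at 0 to 265 TPM in exGut (median 98.9) and 0.468 to 699 TPM in emGut (median 235). Its change of −6.97 was called (SE 1.03, adjusted p = 7.53e-06, limma), but the E9.5 gap of −1.49 was not (adjusted p = 0.103). The lineages overlapped in the midgut, where both were low, and were apart in the hindgut, with 196 to 265 TPM in exHindgut and 447 to 699 TPM in emHindgut. Cox6b2, a testis-type subunit of cytochrome oxidase, turned the other way, from −1.23 to 2.13, with 54.6 to 246 TPM in exGut and 8.48 to 47.1 TPM in emGut, without overlap. Pmaip1 and Zmat3, targets of p53, also came to lie higher in exGut, from −3.71 to 1.39 and from −1.99 to 1.07. The retinoic acid list had 15 genes tested, with 6 closed, Crabp1 narrowed and Aldh1a2, which synthesises retinoic acid, opened to the lower side (−0.14 to −2.16).

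Germline genes went against the general course, since none of 32 tested closed. At E6.5, 15 were higher in exEndo 1 and 1 lower, and at E9.5 17 were higher in exGut (against 2.36% of all genes) and none lower. Of them 12 were kept, Trap1a widened, and Tekt5, Slc25a31 and Mov10l1 opened. The list follows genes that were singled out from these libraries, so its direction is not independent evidence. The median gap of the list was 1.00 at E6.5 and 1.38 at E9.5, while that of all genes stayed near 0. Rhox5, an X-linked homeobox gene (chrX:37804842-37808876), was at 1603, 1626, 1800 and 1403 TPM in exEndo 1 and 13.4, 0.765, 0.850 and 0.807 TPM in Epi. At E9.5 it was at 740 to 1261 TPM in exGut (median 877) and 0 to 24.1 TPM in emGut (median 2.60). The lineages were fully apart at both stages, with gaps of 9.04 and 7.92, and the change of −1.12 had an SE of 0.89 (adjusted p = 0.370, limma).

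Of the 116 kept genes that were higher in the extraembryonic lineage, 22 (18.97%) lie on the X chromosome, against 3.56% of all genes tested, and 9 of these belong to the Xlr family, 2 to the Rhox and 1 to the Mage family. The Xlr genes are near-identical copies that share reads, so the value of a single copy is uncertain. Xlr4b was at 142 to 170 TPM in exEndo 1, 97.0 to 133 TPM in exGut, at most 0.340 TPM in Epi and at most 0.129 TPM in emGut, and its change of −0.24 had an SE of 0.22. Mageb16, another X-linked germline gene, was at 35.4 to 60 TPM in exEndo 1 and 26.2 to 59.2 TPM in exGut, and at most 1.81 TPM in emGut. The autosomal Tex19.1, whose promoter is printed above, was at 19.6 to 81.8 TPM in exEndo 1 and 1.69 to 8.64 TPM in Epi, and at 4.50 to 88.5 TPM in exGut and 0 to 2.07 TPM in emGut. Its gaps were 2.87 and 4.18. Against the exGut mean, the highest emGut library was at 0.092% for mCherry and at 2.61% for Rhox5. Rhox5 was at 18.65 and 24.11 TPM in emMidgut 1 and 3, the libraries with germ cell genes, and at 0 to 5.34 TPM in the rest of emGut. The source of this RNA was not tested. Markers of sex differed between the sides. Xist, the RNA of the inactive X, was at 231 and 123 TPM in exEndo 1 replicates 1 and 3 and near 1.5 TPM in the others (1.51 and 1.43), at 22.3 to 113 TPM in exGut and at most 0.252 TPM in emGut. Without strand, reads of Xist and its antisense partner Tsix cannot be told apart. Ddx3y, a gene on the Y chromosome, was at 0, 47.9, 0 and 62.2 TPM in exEndo 1 and at 0 to 25.9 TPM in exGut. In Epi it was at 0.487 to 2.01 TPM and in emGut at 0 to 3.51 TPM. The embryonic libraries, from ESCs described as male, were thus low for both markers, and the reason was not tested.

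The 143 kept genes that were lower in the extraembryonic lineage include 5 of 37 genes for axon guidance and neural adhesion, namely Mmp2, Cdh11, Ncam1, Nrcam and Dpysl3, and this list too follows genes that were singled out from these libraries. In it 15 genes were lower and 6 higher in exEndo 1, 12 closed, 8 were lower in exGut at E9.5 (against 2.74%) and none higher. Mmp2, a secreted matrix metalloproteinase, was at 6.45, 10.2, 13 and 8.12 TPM in Epi and 0, 1.04, 0 and 0.129 TPM in exEndo 1, and at 22.4 to 83.1 TPM in emGut (median 48.8) and 0.303 to 15.4 TPM in exGut (median 2.31). Neither stage showed overlap. Both lineages rose, by 2.18 and 1.70, with gaps of −3.04 and −3.52 and a change of −0.48 (SE 0.42). For Cdh11, a mesenchymal cadherin, the E9.5 gap differed by region, at −0.27 in the midgut and −4.03 in the hindgut (adjusted p = 0.00457, limma). In the midgut both lineages were low for Cdh11, at most 0.359 TPM in exMidgut and 1.35 TPM in emMidgut. The mesenchyme markers given above were higher in emGut, and their part in these gaps was not tested. Fam111a, a chromatin-associated protease of replicating cells, was at 14.6 to 24.1 TPM in Epi, 0.139 to 3.49 TPM in exEndo 1, 5.10 to 17.5 TPM in emGut and 0 to 3.70 TPM in exGut, with gaps of −3.19 and −2.87.

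The 7 widened genes were EGFP, Trap1a, Cbx7, Cdkn2a, 8030474K03Rik, Mfap2 and the splicing factor gene Cwc22, which is named after its values were seen. Trap1a, a tumour rejection antigen gene on the X chromosome (chrX:139333683-139338169), was at 322, 275, 258 and 242 TPM in exEndo 1 and 13.3, 11.3, 11.3 and 17.0 TPM in Epi, and at 484 to 633 TPM in exGut (median 549) and 0 to 9.53 TPM in emGut (median 0.153). Its gap went from 4.28 to 8.46, a change of 4.18 (SE 0.53, adjusted p = 7.94e-07, limma), of which a fall by 3.17 was in the embryonic lineage and a rise by 1.01 in the extraembryonic. Cbx7, a subunit of Polycomb repressive complex 1, was at 108 to 198 TPM in exEndo 1, 27.2 to 45.7 TPM in Epi, 112 to 205 TPM in exGut and 1.58 to 11.8 TPM in emGut. Only the embryonic lineage moved, by −2.79 against 0.11, and the gap went from 1.94 to 4.84 (adjusted p of the change 4.90e-09, limma).

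Cdkn2a, which encodes the cell cycle inhibitors p16 and p19ARF, rose in both lineages but further in the extraembryonic. It was at 32.8, 48.7, 22.1 and 39.4 TPM in exEndo 1 and 3.37, 0.267, 1.20 and 0.658 TPM in Epi, and at 172 to 547 TPM in exGut (median 305) and 0.188 to 24.7 TPM in emGut (median 5.83). The gap widened from 4.06 to 5.62, a change of 1.56 (SE 0.44, adjusted p = 0.00773, limma), with rises by 3.07 and 1.51. Mfap2, a microfibril protein (chr4:141010418-141015984), widened on the other side, at 11.2 to 23.6 TPM in Epi, 0.0318 to 0.835 TPM in exEndo 1, 212 to 493 TPM in emGut and 0 to 19.2 TPM in exGut. Its gap went from −3.56 to −6.22 (adjusted p of the change 0.00331, limma). Of 19 cell cycle inhibitors and Polycomb genes, 5 closed, a share near the 18.8% of all genes, among them Cdkn1c (2.89 to 0.41), Bmi1 (2.12 to 0.71) and Cbx6 (−3.05 to −0.35), while Cdkn2b, the neighbour of Cdkn2a, opened from 0.90 to 2.54.

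Genes that opened to the higher side did so mainly through rises in exGut, and genes that opened to the lower side mainly through rises in emGut. For the 67 that opened to the higher side the median change was 1.43 in the extraembryonic and −0.12 in the embryonic lineage, and for the 72 that opened to the lower side it was 0.19 and 1.75. In YsEndo, 53 of the 67 (79.1%, against 30.1% of all genes) had a mean over 1 log2 unit below exGut. The 67 were chosen for high values in exGut, which this share uses again, so it is partly built in and only a description. Among 28 targets of p53, 5 were higher and 5 lower in exEndo 1 at E6.5, and 12 were higher and none lower in exGut at E9.5, where 2.36% of all genes were higher. Ccng1, Phlda3, Tnfrsf10b and Eda2r opened, Trp53inp1, Btg2 and Polk were kept, Perp narrowed and 3 closed. Part of this list was singled out from these libraries and is not independent evidence of its direction.

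Phlda3, an inhibitor of AKT signalling induced by p53, was at 4.35, 7.86, 3.18 and 1.29 TPM in exEndo 1 and 11.9, 6.05, 5.08 and 8.18 TPM in Epi, which overlapped. In the gut it was at 55.3 to 243 TPM in exGut (median 87.3) and 7.47 to 28.1 TPM in emGut (median 18.5), fully apart. The gap went from −0.87 to 2.48, a change of 3.36 (SE 0.43, adjusted p = 8.97e-07, limma), with rises by 4.40 and 1.04. Ccng1, cyclin G1, was at 25.1 to 27.3 TPM in exEndo 1 and 18.5 to 44.6 TPM in Epi, and at 63.0 to 158 TPM in exGut against 14.6 to 33.4 TPM in emGut, a change of 2.30 (SE 0.32). Eda2r, a receptor of the TNF family, rose to 11.3 to 91.1 TPM in exGut against 0.667 to 10.1 TPM in emGut, with a change of 3.58 (SE 0.46). Cdkn1a and Mdm2, also targets of p53, had no gap called at either stage over both regions (0.70 and 0.80, and 0.57 and 0.28). In the hindgut alone, however, Cdkn1a had a gap of 1.18 (adjusted p = 8.71e-04, limma), at 490 to 701 TPM in exHindgut against 199 to 312 TPM in emHindgut, and in the midgut it was at 225 to 378 against 182 to 223 TPM (gap 0.42, not called).

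Slc25a31, an ADP/ATP carrier of germ cells (chr3:40708855-40726096), was at 3.43, 3.10, 1.18 and 0.549 TPM in exEndo 1 and 2.02, 0.467, 0.113 and 0.206 TPM in Epi. It was then at 2.80 to 26.2 TPM in exGut (median 15.5) and was listed at 0 in all 8 emGut libraries, so that no fold is given. Nnat, an imprinted gene for a membrane proteolipid, had a gap of −0.27 (SE 0.40) at E6.5 and 3.26 (SE 0.28) at E9.5, with a rise by 2.45 in the extraembryonic lineage, while the embryonic lineage fell by 1.08, both called by limma. Fstl4, a follistatin-like gene, opened to the lower side, at 7.62 to 26.1 TPM in emGut and 0.310 to 5.78 TPM in exGut after at most 1.09 TPM in all libraries of E6.5, a change of −2.96 (SE 0.55). Mocs1, for the first step of molybdenum cofactor synthesis, did so from about 3 TPM in both lineages, with 2.60 to 4.11 in exEndo 1 and 2.86 to 3.69 in Epi, to 19.6 to 53.9 TPM in emGut against 2.45 to 14.8 TPM in exGut.

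**Figure D4:**
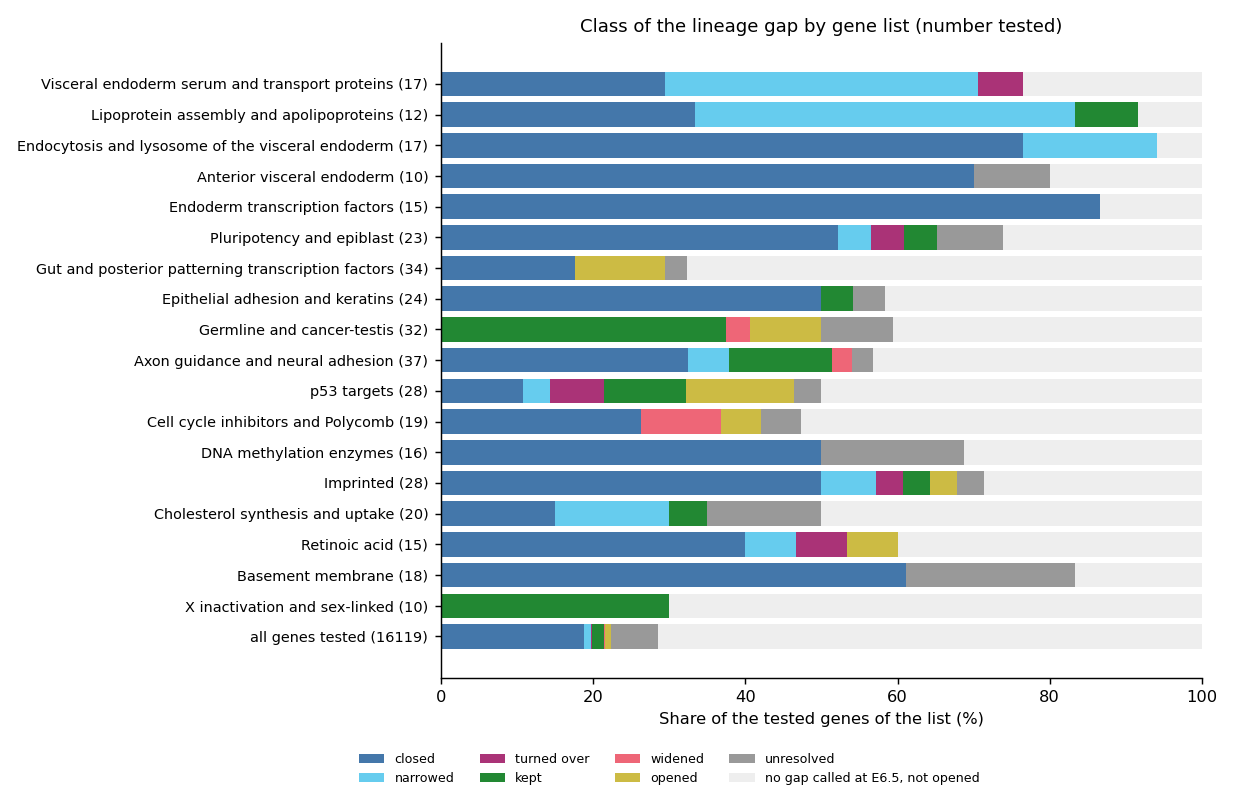
Share of the tested genes of each list, in percent, by the class of the lineage gap, with the number of genes tested beside the name of the list. The endocytosis list and the endoderm factors are mostly closed (13 of 17 and 13 of 15), while the germline list has no closed gene and 12 of 32 kept.

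The later course of the gaps was read in 12 libraries of the E13.5 intestine, small intestine and colon with 3 libraries each of embryonic and of extraembryonic origin. These extraembryonic cells came from embryos in which the extraembryonic side was Trp53 knockout, so that origin and genotype cannot be told apart there, and the embryonic cells were sorted as GFP+ without a low mCherry gate. Of 13560 genes tested, 108 (0.796%) were called, 80 higher and 28 lower in extraembryonic cells. The median difference over all genes tested was 0.109, a shift to the positive side against which the counts by sign are to be read. Of the kept higher genes, 28 of 105 tested (26.7%, against 0.590% of all genes) were called higher again. A positive difference was found for 98 of 105, with a median of 1.40. Of the kept lower genes, 8 of 123 (6.504%, against 0.206%) were called lower and 102 of 123 had a negative difference. Of the 2445 closed genes tested, 9 (0.368%) were called in the direction of their E6.5 gap, near the 0.590% and 0.206% of all genes called higher and lower. Of the opened genes, 4 of 44 on the higher side (against 0.590% of all genes) and 0 of 44 on the lower (against 0.206%) were called in their direction. Without regard to calls, 39 of 44 and 33 of 44 had a difference on their side, with medians of 0.97 and −0.61.

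Individual genes followed the same lines. The E13.5 differences of Rhox5, Trap1a, Xlr4b, Mageb16 and Tex19.1 were 10.08, 9.37, 6.29, 5.33 and 5.08, those of Cdkn2a, Cbx7 and H19 were 6.71, 4.01 and 6.92, and that of Mfap2 was −5.25, all called (largest adjusted p among them 0.00464, limma). Afp, narrowed at E9.5, had 2.33, while Apob had 0.95, which was not called. Among the targets of p53 named above, in the Trp53 knockout cells Phlda3 had −3.53 (SE 0.75, adjusted p = 0.0341, limma) and Ccng1 −0.61 (SE 0.38, not called). Trp53inp1, Cdkn1a and Mdm2 had 1.14, 1.09 and −0.0056, none of them called, and Eda2r was not among the genes tested there. Slc38a4 and Nnat, with −1.39 and 0.80, were not called.

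**Figure D5:**
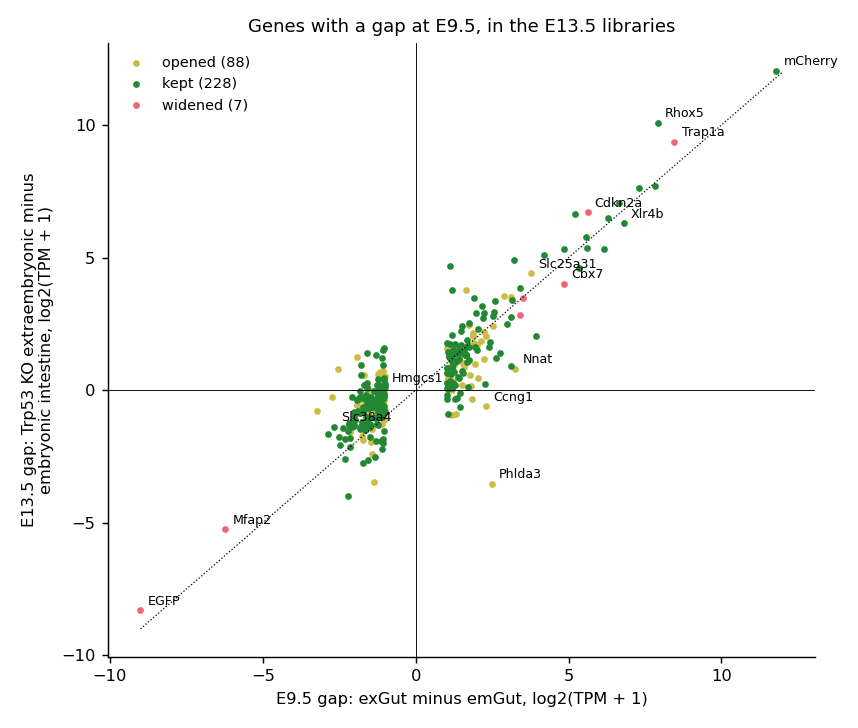
Genes that were kept, widened or opened, with the E9.5 gap (exGut minus emGut) on the horizontal and the E13.5 difference (Trp53 knockout extraembryonic minus embryonic intestine) on the vertical axis, both as differences of mean log2(TPM + 1). Kept and widened genes with wide gaps, such as Rhox5, Trap1a, Cdkn2a and Mfap2, keep their side at E13.5, while Phlda3 lies below 0.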

How the data were processed

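RNA was measured by Smart-Seq2-type low-input poly(A) sequencing in 44 libraries, of which the 24 named in the report and, for the later course, 12 of E13.5 and 4 of YsEndo were used. For the deposited files the authors used cutadapt 4.1 for trimming, STAR 2.7.9a for alignment to mm10 with the reporter sequences added, and StringTie 2.0.6 for the estimates over GENCODE VM23 genes. The deposited values per gene are TPM and FPKM, both normalised by the authors for length and depth, and the deposited coverage, the mean depth over a transcript. Read counts per gene were not used, and precision is known from the spread between replicates alone. Coverage divided by FPKM gave the relative depth of libraries.

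TPM was summed per gene identifier, and genes above 1 TPM in at least 4 of the 24 libraries (3 of 12 at E13.5) were tested as log2(TPM + 1), a scale that understates changes of weakly expressed genes. A model with 6 group means was fitted in R 4.3.3 with limma 3.58.1, using a trended eBayes step and two-sided tests, with Benjamini-Hochberg adjustment over all genes of each contrast, and calls needed an adjusted p under 0.05 and a difference above 1. The E13.5 fit had the same form. Replicates of E6.5 are single embryos and those of E9.5 are pools of 4 embryos. Replicate numbers were not used to pair the samples. Deviations of same-numbered libraries correlated by −0.119 to 0.140 at E6.5 and by −0.0106 to 0.0605 in the gut, where a weak pairing is not excluded. Gene positions come from GENCODE vM21 in mm10, matched by identifier for 32235 of 32287 genes. The script was tested on simulated data. Python 3.11.15, pandas 2.3.3 and NumPy 2.4.6 made the summaries.

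Genes named by rule are both reporters, genes marked in the lists, and per class and direction the 3 protein-coding genes off the Y chromosome with the largest change (for kept genes the largest smaller gap) among those whose libraries do not overlap. Other genes given with values, such as Ctsl, Cdx4, Vim, Pmaip1 and Cdkn2b, follow no such rule and were not checked singly under the alternatives. Counts of named genes further on refer to those of the rule. Members, lists and classes were chosen with earlier results of these data known. Alternatives were another pseudocount, other filters, FPKM, quantile and median-ratio scaling, eBayes without trend, array weights, protein-coding genes only, all 32 libraries of E6.5 and E9.5, a single gut region, other fold thresholds, a replicate block and each library left out. Leaving out emMidgut 1 and 3 together was added after the data were seen. Some genes of the lists are counted but not reported singly here.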

Additional observations from a re-analysis of the deposited data

Results flagged for a closer look

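Among 588 sets of 4 libraries checked for the named genes, 55 had a highest or lowest library whose distance to the nearest of the others, divided by the whole range, exceeded the 95% critical value of Dixon for 4 samples. Chance gives about 1 in 20 such sets.

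Epi replicate 1 had 9 of them. It was the lowest Epi library for Cyp26a1 (0.108 TPM against 34.0 to 65.6), Foxa2 (0.121 against 18.7 to 25.1) and Fst (30.4 against 142 to 156). It was the highest for the germ cell and X-linked genes Dazl (7.73 TPM against 0.407 to 0.780), Mageb16 (8.05 against 0.272 to 0.633), Rhox5 (13.4 against 0.765 to 0.850) and Tex101 (0.683 against 0 to 0.0662), and for Rarb (0.240 TPM) and mCherry (0.822 TPM). Without it the counts of closed, kept and opened genes were 2775, 250 and 106, beside 3023, 259 and 139 with it. Epi replicate 4 was the lowest for Pou5f1 (1067 TPM against 1694 to 1852), Utf1 (145 against 434 to 452) and Dnmt1 (55.5 against 76.2 to 78.8), and Epi replicate 3 the highest for Lama1 (1.24 TPM) and Sox9 (1.20 TPM).

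In exEndo 1, replicate 1 was the highest for Tex19.1 (81.8 TPM against 19.6 to 24.1) and Tex101 (0.459 TPM), replicate 2 for Mmp2 (1.04 TPM) and replicate 4 for Cdx1 (0.132 TPM).

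In emMidgut, replicate 1 was the lowest for the secreted proteins Apoa1 (29.7 TPM against 183 to 260) and Ttr (148 against 261 to 268), and the highest for Xlr3a (8.90 TPM), mCherry (5.29 TPM), Cdx1 (1.75 TPM) and Xist (0.195 TPM), each at 0 in the other 3. Replicate 2 was the highest for Fst (1.82 TPM). Replicate 3 was the highest for Trap1a (9.53 TPM against 0 to 0.297), Lefty1 (0.760 TPM) and Fgf5 (0.330 TPM) and the lowest for Peg3 (873 TPM against 952 to 968). Replicate 4 was the highest for Apoc2 (1.69 TPM), Pnma5 (0.623 TPM) and Sycp3 (0.0985 TPM) and the lowest for Fxyd6 (79.2 TPM against 109 to 112). In emHindgut, replicate 1 was the highest for Cox6b2 (46.4 TPM against 33.6 to 35.2), Tet1 (34.3 against 24.0 to 24.6), Cubn (0.00448 TPM) and Pnma5 (0.00427 TPM), replicate 2 for Tex19.1 (2.07 TPM) and replicate 4 for Hnf4a (0.308 TPM), while replicate 4 was the lowest for Dnmt3a (113 TPM against 157 to 167).

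In exMidgut, replicate 1 was the highest for EGFP (2.30 TPM) and Nanog (0.181 TPM), replicate 2 for Cer1 (1.20 TPM), replicate 3 for Dnmt3l (0.0185 TPM) and replicate 4 for Dnmt3a (154 TPM against 129 to 131), Fgf5 (3.65 TPM) and Pou5f1 (1.66 TPM). In exHindgut, replicate 1 was the lowest for Dab2 (2.65 TPM against 10.3 to 11.7). Replicate 2 was the lowest for 8030474K03Rik (3.75 TPM against 18.7 to 23.4) and the highest for EGFP (2.38 TPM), Pou5f1 (1.37 TPM) and Fgf5 (0.915 TPM). Replicate 3 was the highest for Utf1 (2.71 TPM) and Hnf4a (0.116 TPM), and replicate 4 for Apoa4 (1.72 TPM), a gene listed at 0 in the other 3.

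The same contrast differed between stages for 3761 genes by the test of the change itself. Between regions, the E9.5 gap differed for 77 of 16119 genes (0.478%), and for 122 without exMidgut replicate 1. Among the named genes it did so for Amn (hindgut minus midgut −3.79, gaps 4.62 in the midgut and 0.83 in the hindgut, adjusted p = 0.00831), Apoa4 (−3.89, 4.25 and 0.36, adjusted p = 0.0237), Trf (−2.19, 1.65 and −0.54, adjusted p = 0.00701) and Cdh11 (−3.76, −0.27 and −4.03, adjusted p = 0.00457), all by limma. The 3 genes of visceral endoderm function thus had their remaining excess in the midgut, and the mesenchymal cadherin its deficit in the hindgut. Amn and Apoa4 were low in both lineages of the hindgut, at most 4.43 and 1.72 TPM. Cdh11 was low in both lineages of the midgut, at most 1.35 TPM. Where both lineages are this low, the log2(TPM + 1) scale can show little of a gap.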

How the results depend on the processing

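Of 99 named genes, 70 had a called change, and 53 of these kept direction and call under all 40 alternatives, 3 more did so under the 39 that gave a value, and 14 lost the call under at least 1. No called change of a named gene changed sign. Quantile normalization turned the median change over all genes to 0.0545 and the median E6.5 gap from 0.0768 to −0.0458. It also turned the majority among called genes, the share higher in the extraembryonic lineage going from 60.8 to 49.5% at E6.5 and from 46.3 to 51.6% at E9.5, and that of rises among called changes from 36.5 to 50.3%. Quantile normalization, median-ratio rescaling, eBayes without trend and the restriction to protein-coding genes left every count within 1.5 times its value. A replicate block had an estimated correlation of 2.93e-04, gave 3024 closed genes (3023 of them shared) and changed no other class. The main fit did not use replicate numbers as pairs.

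With a pseudocount of 0.1, narrowed, turned over and widened genes became 269, 135 and 12, region differences 36, and the median absolute gaps 0.754 and 0.304. Without a filter on low values these medians were 0.200 and 0.113. Above 5 TPM, 90 genes opened, 43 differed by region and the E6.5 median was 0.603. With FPKM, 505 genes had an E9.5 gap, 87 narrowed, 12 turned over, 172 were kept and 88 opened, and the medians were 0.522 and 0.209. With array weights, 15 widened, 33 differed by region and the E6.5 median was 0.589. With all 32 libraries of E6.5 and E9.5, 227 differed by region. With the midgut alone 77 turned over and the medians were 0.598 and 0.294, and with the hindgut alone 84 turned over, 12 widened, 225 opened and the medians were 0.601 and 0.267. At a log2 threshold of 2, E6.5 had 1557 calls (974 higher), E9.5 125 (80 higher), the change 1307 (449 rises), the extraembryonic side 1578 and the embryonic side 1393, with 1086 closed, 15 narrowed, 1 turned over, 45 kept, 3 widened and 21 opened. With no fold threshold, E6.5 had 6938 calls, E9.5 2091 (893 higher), and the sides 8420 and 7994, with 589 kept, 11 widened and 262 opened. The cause of these shifts was not tested beyond the thresholds themselves.

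Leaving out each library gave 2740 to 3069 closed, 237 to 288 kept and 106 to 165 opened genes, 54 to 122 region differences (the highest without exMidgut replicate 1) and an E6.5 median of 0.552 to 0.584. At E13.5 the share of all genes called was 0.504 to 0.858%, lowest without emSI replicate 1, and that of kept genes called in their direction 11.2 to 16.6%. Without emMidgut 1 and 3 together, 3017 genes closed, 271 were kept and 150 opened. Foxa2 lost its call under 27 of the 40 alternatives, among them without Epi replicate 1 (−0.72, below the size threshold, adjusted p = 0.0432) and without emMidgut 1 and 3 (−1.90, adjusted p = 0.0555). The call was lost for 8030474K03Rik without Epi replicate 1 (1.60, adjusted p = 0.0522) and under 6 alternatives in all, while Phlda2 gained one without emMidgut 1 and 3 (1.80, adjusted p = 0.0354), all by limma. Without read counts, levels under 1 TPM carry an unknown sampling error.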
